A study of Drosophila melanogaster with 3 samples.

Results

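The Cpr genes of Drosophila melanogaster encode structural proteins of the cuticle, and they are described here by how Aef1-eGFP peaks lie at their transcript starts. Members were all protein-coding genes whose annotated symbol starts with Cpr followed by a digit, which gave 70 of the 13945 protein-coding genes on arms 2L, 2R, 3L, 3R, 4 and X. Arm 3L held 35 of them, arm 2R 21, arms 2L and 3R 5 each, and the X chromosome 4. Chromatin immunoprecipitation with sequencing had been done on whole embryos of 0 to 24 h from a transgenic Aef1-GFP strain, in which an insertion supplies Aef1 fused to enhanced green fluorescent protein (eGFP). The 3 biological replicates formed 1 group and all carry the insertion, chromatin was sonicated to fragments of 200 to 800 bp, and precipitation used an antibody against GFP, although another label field names Aef1 as the antibody. The sources used here do not say which promoter drives the fusion or whether the endogenous gene is intact. No untagged, input or second group was analysed, so values are compared between genes within each replicate, and no test between conditions was possible.

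Cuticle is the outer layer that the epidermis and its tubular ingrowths secrete, a lattice of chitin fibres embedded in protein. Most Cpr proteins carry the Rebers and Riddiford (R&R) consensus, a chitin-binding stretch, and different members are laid down in larval, pupal and adult cuticle and in stiff or pliant parts of the body. Aef1 takes its name, adult enhancer factor, from the fat body enhancer of the alcohol dehydrogenase gene where it was first described. It is a zinc finger protein whose known binding sequence is built of CAACAA repeats. In embryos pooled over a whole day, a site used in few cells or hours and a site bound weakly in all of them cannot be told apart.

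The family's sequences fit its name. The R&R core was found in the translated coding sequence of 66 of 70 members (94.3%) and in 216 of all 13945 genes (1.55%). The members without the core as searched were Cpr30F, Cpr49Ac, Cpr62Ba and Cpr97Eb. Members encoded a median of 179.5 residues, from 93 in Cpr60D to 1231 in Cpr76Bd, against 392 residues over all genes, and their genes spanned a median of 1094 bp against 2166 bp.

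Sequences are given from the dm6 genome (RefSeq), 5′ to 3′, with CAACAA or its complement TTGTTG in capitals on either strand, and, in promoters, a TATA word (TATAAAA or TATATAA) that lies 45 to 16 bp before the start. The first set shows 151 bp around the summits of thresholded peaks, those kept by the authors' reproducibility filter, that lay closest to Cpr genes, since no such peak lay at a Cpr start. The Cpr73D sequence comes from an intron, and the others are intergenic.
Cpr65Eb site (chr3L:7090892-7091042, plus strand): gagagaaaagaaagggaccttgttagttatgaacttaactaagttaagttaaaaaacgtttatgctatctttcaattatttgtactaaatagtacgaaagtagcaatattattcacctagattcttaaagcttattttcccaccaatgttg
Cpr76Ba site (chr3L:19516649-19516799, plus strand): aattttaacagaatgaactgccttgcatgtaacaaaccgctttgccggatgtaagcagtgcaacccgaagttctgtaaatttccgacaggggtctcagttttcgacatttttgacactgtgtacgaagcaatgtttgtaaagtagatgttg
Cpr73D site (chr3L:16956847-16956997, plus strand): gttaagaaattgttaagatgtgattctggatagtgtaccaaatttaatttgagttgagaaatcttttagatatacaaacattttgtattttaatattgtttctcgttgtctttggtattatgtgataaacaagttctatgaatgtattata
Cpr65Ay site (chr3L:6157669-6157819, plus strand): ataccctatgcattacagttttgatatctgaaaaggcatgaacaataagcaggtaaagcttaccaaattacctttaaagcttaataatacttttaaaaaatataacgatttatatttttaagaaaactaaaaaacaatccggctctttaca
None of the 4 holds CAACAA on either strand in these windows. The second set shows the 250 bp before the start for Cpr11B and Cpr100A, whose promoters carry the tandem CAACAACAA, for Cpr67Fa1, which has a TATA word at the usual distance, and for Cpr97Ea, which had the most tightly placed weak peaks.
Cpr11B promoter (chrX:12552874-12553123, plus strand): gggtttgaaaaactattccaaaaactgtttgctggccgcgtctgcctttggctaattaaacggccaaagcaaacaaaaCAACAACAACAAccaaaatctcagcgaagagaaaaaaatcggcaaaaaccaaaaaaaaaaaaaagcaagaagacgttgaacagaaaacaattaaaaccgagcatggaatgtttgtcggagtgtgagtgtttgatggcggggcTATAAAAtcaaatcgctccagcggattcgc
Cpr100A promoter (chr3R:30867271-30867520, plus strand): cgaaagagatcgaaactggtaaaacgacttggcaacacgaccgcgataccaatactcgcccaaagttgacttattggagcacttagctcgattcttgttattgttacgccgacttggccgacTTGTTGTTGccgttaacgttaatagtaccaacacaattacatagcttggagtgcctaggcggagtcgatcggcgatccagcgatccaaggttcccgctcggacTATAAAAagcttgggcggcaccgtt
Cpr67Fa1 promoter (chr3L:10889740-10889989, plus strand): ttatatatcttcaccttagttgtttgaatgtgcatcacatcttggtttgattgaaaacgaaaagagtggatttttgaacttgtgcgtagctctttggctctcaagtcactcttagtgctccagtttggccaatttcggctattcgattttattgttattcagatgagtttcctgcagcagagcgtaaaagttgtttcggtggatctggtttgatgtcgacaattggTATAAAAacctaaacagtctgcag
Cpr97Ea promoter (chr3R:27087779-27088028, minus strand): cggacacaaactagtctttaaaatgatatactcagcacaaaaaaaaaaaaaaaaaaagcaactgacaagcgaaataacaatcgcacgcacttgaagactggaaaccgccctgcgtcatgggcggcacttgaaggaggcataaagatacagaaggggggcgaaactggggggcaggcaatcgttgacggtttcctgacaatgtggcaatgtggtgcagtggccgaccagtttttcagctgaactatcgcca
Cpr11B and Cpr100A hold the tandem and a TATA word in the same promoter, while Cpr97Ea holds neither.

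No Cpr gene had a reproducible Aef1-eGFP peak at its start. A gene was counted as bound where a peak summit lay within 500 bp of any of its annotated transcript starts. The authors' thresholded lists keep peaks up to an irreproducible discovery rate (IDR) of 0.01, a measure of how well a peak's rank repeats between paired calls, and they held 3495, 3126 and 2942 peaks in replicates 1, 2 and 3. In each of the 3 replicates 0 of 70 Cpr genes were bound, which allows a share of up to 4.29% (exact Clopper-Pearson 95% interval 0 to 5.13%, which like all intervals here covers counting error only). Of all 13945 genes, 16.6% were bound in replicate 1, 15% in replicate 2 and 14.6% in replicate 3, and 11.3% in all 3. Read depth is unknown for all 3 lists.

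Cpr genes also differ from most genes in their layout. Of these 70, 61 (87.1%) had 1 annotated start with no start of another gene within 500 bp, compared with 52.7% of all genes. Among the 7346 such lone genes, 3.85% were bound in all 3 replicates, below the 4.29% that a count of 0 allows for the family. A deficit of the Cpr genes against lone genes was therefore not detectable in that count. Members that are not lone had no background of like layout, and the lone share was not computed for single replicates.

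The same count of 0 was found in other families of cuticle structural genes. Tweedle genes, which encode another class of cuticle protein, gave 0 of 25, which allows a share of up to 12%. R&R genes with other names, mainly the Lcp, Ccp and Edg genes, gave 0 of 28 (up to 10.7%), and the obstructor and peritrophin-type chitin-binding genes gave 0 of 12 (up to 25.0%) in every replicate. Of 30 tanning genes, which colour and harden the cuticle, 2 were bound in replicate 1, 0 in replicate 2 and 2 in replicate 3, and 0 in all 3. Beside these stand the 16.6%, 15% and 14.6% of all genes bound per replicate and the 11.3% bound in all 3. The exact 95% intervals for 0 genes in all 3 reached 13.7% for Tweedle, 12.3% for other R&R, 26.5% for obstructor and 11.6% for tanning genes. Each lies above 11.3%, so a difference of these lists from all genes was not detectable in that count. In each single replicate, the 13.7% of Tweedle and the 12.3% of other R&R genes lay below the share of all genes. For obstructor genes the limit lay above it, and for tanning genes it lay below in replicate 2 only (11.6%). Layout was not matched in these comparisons.

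Genes that make or remodel chitin and genes that regulate the epidermis included bound members, at shares near that of all genes. In all 3 replicates 4 of 33 chitin genes (12.1%, interval 3.40 to 28.2%) and 3 of 21 epidermal and moulting regulators (14.3%, interval 3.05 to 36.3%) were bound, beside 11.3% of all genes. Both intervals include 11.3%, so a difference from all genes was not detectable in that count. Hexo2, which encodes a hexosaminidase, had summits at -225, -244 and -218 bp from its start (negative values are upstream) with ranks of 7.53, 8.06 and 10.2% in the thresholded lists, where 0% is the strongest peak. Cht7, a chitinase gene, had summits at -214, -151 and -193 bp at ranks of 27.4, 34.0 and 56.1%. Peaks at Cht11 and Gfat2 completed the chitin genes, and the Cht11 summit was closer to the start of CG4558 in replicate 1.

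Eip75B, an ecdysone-responsive nuclear receptor gene, had the strongest peak of the chitin and regulator lists, with summits at 93, 75 and 109 bp from a start and ranks of 3.69, 7.55 and 4.79%. The others were usp, whose product is the partner of the ecdysone receptor, and tai, which encodes a coactivator of it. Their peaks were weaker, with ranks of 34.4, 75.4 and 85.0% at usp and 40.4, 77.9 and 88.7% at tai. The tai summits lay at 399, 420 and -219 bp from a start, so not on the same side in every replicate. As reference lists, 28 of 92 cytoplasmic ribosomal protein genes (30.4%) and 0 of 230 chemosensory receptor and odorant binding genes were bound in all 3 replicates, the latter allowing a share of up to 1.30%.

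**Figure D1:**
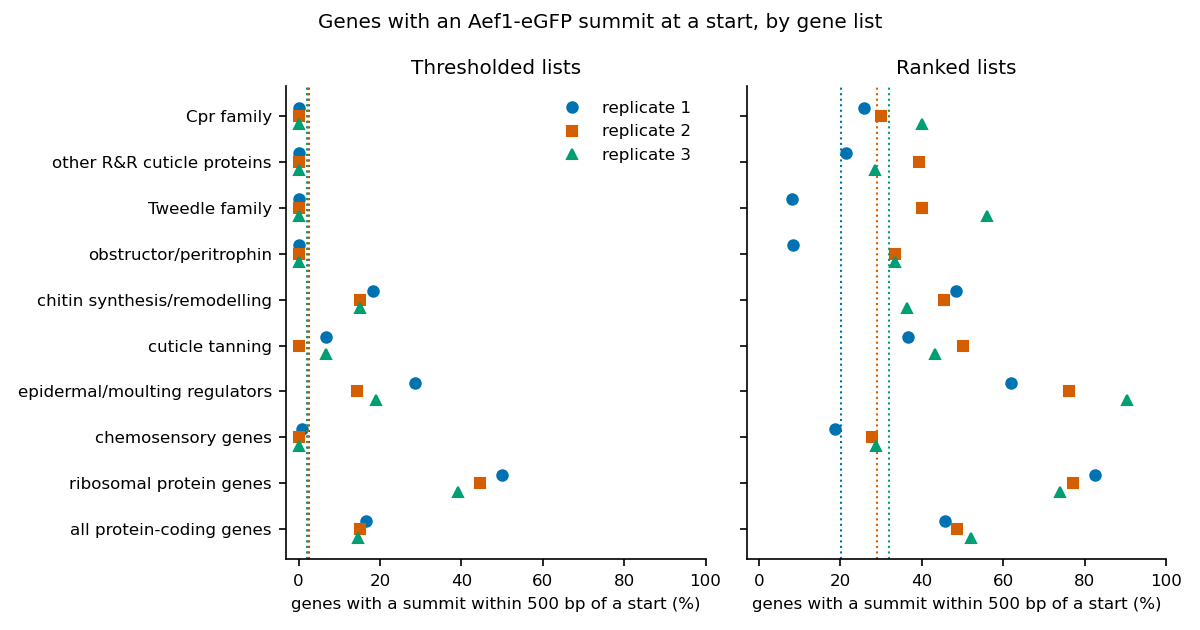
Share of genes in each list (x axis, %) with an Aef1-eGFP summit within 500 bp of a start, for thresholded lists (left) and ranked lists (right), with 1 point per replicate and dotted lines at the share of arm bases within 500 bp of a summit in that replicate. The Cpr family stands at 0% in the thresholded lists and between 25.7% and 40.0% in the ranked lists, below all genes in each replicate.

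Weak peaks were present at many Cpr starts. With 29199, 43924 and 49093 peaks in the 3 replicates, the ranked lists include peaks above the IDR threshold, and so many that do not repeat. Whether the ranked lists keep every candidate call is not stated. They placed a summit within 500 bp of a start in 18 Cpr genes (25.7%) in replicate 1, 21 (30.0%) in replicate 2 and 28 (40.0%) in replicate 3, a mean of 31.9% ± 7.33 (SD, n = 3). Among all genes the shares were 45.6%, 48.7% and 52.0%, a mean of 48.8% ± 3.21 (SD, n = 3). The Cpr share was the lower in every replicate. Its exact interval lay below the share of all genes in replicates 1 and 2, reaching 37.6% and 42.1%. In replicate 3 the interval of 28.5 to 52.4% included the 52.0% of all genes, so a difference was not detectable in that count.

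The weak peaks are also dense in the genome. Of all bases of the arms, 20.2%, 29.0% and 31.9% lay within 500 bp of a ranked summit, against 2.10 to 2.51% for thresholded summits. The Cpr shares were above the arm share in each replicate, but their exact 95% intervals (16 to 37.6%, 19.6 to 42.1% and 28.5 to 52.4%) held it each time.

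Few weak peaks recurred. A ranked peak was found at 28 Cpr genes (40.0%) in no replicate, at 23 (32.9%) in 1, at 13 (18.6%) in 2 and at 6 (8.57%, interval 3.21 to 17.7%) in all 3. Over all genes these shares were 31.1%, 22%, 16.5% and 30.4%. Among lone genes 15.2% had a ranked peak in all 3 replicates, and 5 of the 61 lone Cpr genes (8.20%) did. The Cpr interval includes the share of lone genes.

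The 6 recurrent members were Cpr30F, Cpr31A, Cpr47Ef, Cpr65Av, Cpr65Ea and Cpr97Ea. Their positions relative to the start differed, and are given with negative values upstream.

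Cpr97Ea (chr3R:27083130-27087778, minus strand) had summits at -52, -66 and -67 bp in replicates 1, 2 and 3. Their ranks in the ranked lists were 39.5, 67.2 and 31.2% and their signals 20.5, 12.8 and 18.9, in the authors' unscaled unit. The 3 summits lay within 15 bp of each other, inside the promoter shown above. The IDR was 0.190, 0.877 and 0.440, far from the threshold in each replicate.

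Cpr47Ef (chr2R:11266915-11272575, minus strand) had summits at 34, 15 and 36 bp. The ranks were 22.9, 29.6 and 57.2%, with signals of 27.3, 18.7 and 14.3. The summits lay within 21 bp, just downstream of the start.

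Cpr31A (chr2L:10054213-10055935, plus strand) had summits at -243, -276 and -207 bp. Ranks of 91.3, 23.7 and 83.6% placed them near the bottom of the lists in replicates 1 and 3 and in the upper part in replicate 2.

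Cpr65Av (chr3L:6139223-6139974, minus strand) had its strongest summits inside the gene at 435, 353 and 353 bp, with ranks of 30.6, 37.8 and 9.79%. The replicate 3 rank was the best of any Cpr gene in any replicate.

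Cpr65Ea (chr3L:7086003-7086608, minus strand) had summits at -276, -341 and 287 bp with ranks of 24.3, 37.3 and 9.84%. In replicate 3 the strongest summit lay on the other side of the start, 628 bp from the farthest, so the strongest summits did not mark 1 place. Weaker ranked summits lay downstream of the start in replicates 1 and 2 too. Counted from the left end of the gene, whose start is at 0.605 kb, the downstream summits were at 0.184, 0.369 and 0.318 kb in replicates 1, 2 and 3.

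Cpr30F (chr2L:9932272-9933163, minus strand) had summits at 387, 435 and 243 bp with ranks of 74.2, 41.3 and 18.3%. Its replicate 3 peak had an IDR of 0.0904, the lowest of any Cpr gene, and its replicate 1 and 2 peaks had 0.820 and 0.877.

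Across the 6 members, the strongest summits stayed within 100 bp over the replicates in 4 (66.7%). The share was 66.8% in the 4245 genes with ranked peaks in all 3. The strongest ranked peak at a Cpr start had a median rank of 74.7, 37.8 and 35.5% in the 3 replicates, and at all genes 19.0, 17.9 and 17.5%. The medians over all genes include genes with thresholded peaks, and no Cpr gene had one, so the gap in part restates the count of 0. The Cpr genes held no peak at an IDR of 0.05 or below in any replicate. Of all 13945 genes, 2764, 2428 and 2456 had a strongest ranked peak at such an IDR. In the thresholded lists 2313, 2085 and 2040 genes (16.6, 15 and 14.6%) were bound, so much of this contrast repeats the count of bound genes. Lone genes were not compared. The lowest Cpr values were 0.190 at Cpr97Ea in replicate 1 and 0.121 at Cpr49Ad in replicate 2, apart from the Cpr30F value above.

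**Figure D2:**
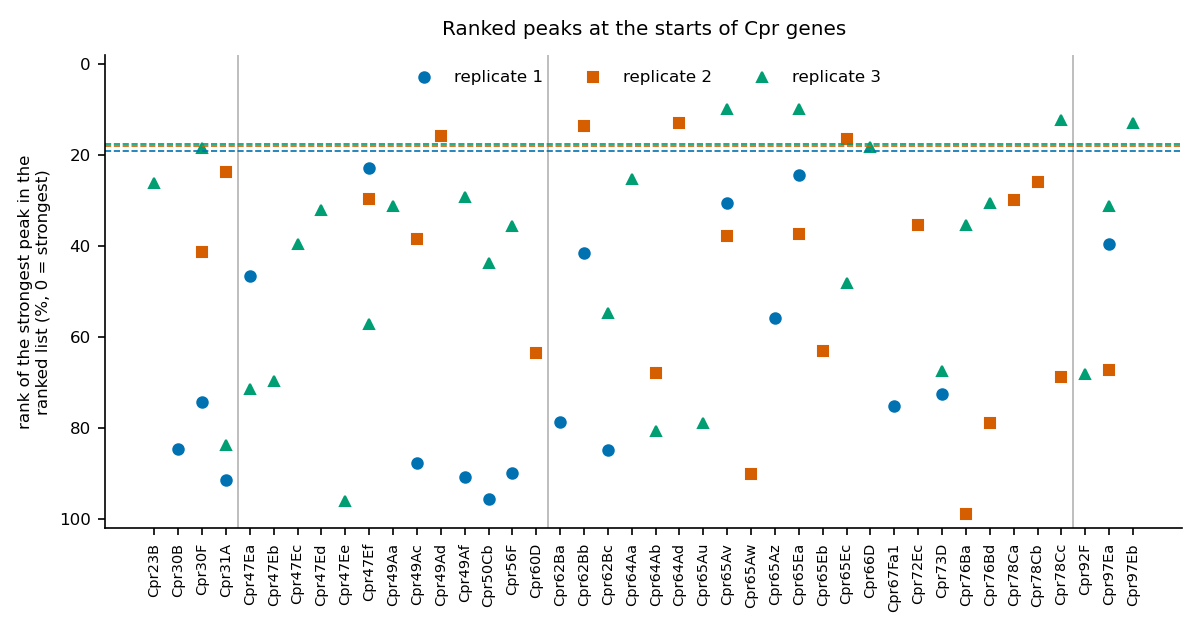
Rank of the strongest ranked peak within 500 bp of a start (y axis, % of the list, 0 is the strongest) for the 42 Cpr genes with such a peak in at least 1 replicate, ordered along the arms with grey lines between arms. Dashed lines give the median rank over all genes with a ranked peak (19.0, 17.9 and 17.5%), and most Cpr points lie below them.

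Cpr56F, another member on arm 2R, had ranked summits at -498 and -497 bp in replicates 1 and 3, at the edge of the 500 bp window, and none in the window in replicate 2. Their ranks were 89.8 and 35.6%. The nearest replicate 2 summit was 1007 bp away.

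Some members with peaks in fewer replicates also had high ranks. Cpr64Ad had a rank of 12.9% in replicate 2 alone, and Cpr97Eb 12.9% in replicate 3 alone. Cpr62Bb stood at 41.5 and 13.6% in replicates 1 and 2, with summits at -273 and -158 bp. These peaks did not return in every replicate. In replicates 1 and 3 the best ranks belonged to recurrent members (22.9% at Cpr47Ef and 9.79% at Cpr65Av), and in replicate 2 the best, that of Cpr64Ad, did not.

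The strongest ranked summit lay upstream of the start less often at Cpr genes than over all genes. Among Cpr genes with a ranked peak, 8 of 18, 9 of 21 and 15 of 28 had the strongest summit upstream of the start. These shares were 44.4%, 42.9% and 53.6%, against 71.0%, 66.7% and 63.4% over all genes. The counts are small, no interval was computed, and lone genes were not compared. The values over all genes, here and in the bins below, also include genes with thresholded peaks, while no Cpr gene had one at its start. Weak peaks alone were not compared. Counted in 1 kb bins, ranked summits over all genes were densest in the kilobase before the start, at 0.440, 0.484 and 0.524 per gene per kb. Cpr genes had 0.257, 0.357 and 0.429 there and 0.314, 0.529 and 0.386 in the kilobase after the start. In thresholded lists the kilobase before a start held 0 summits for the whole family in every replicate, and 0.145, 0.131 and 0.127 per gene over all genes.

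**Figure D3:**
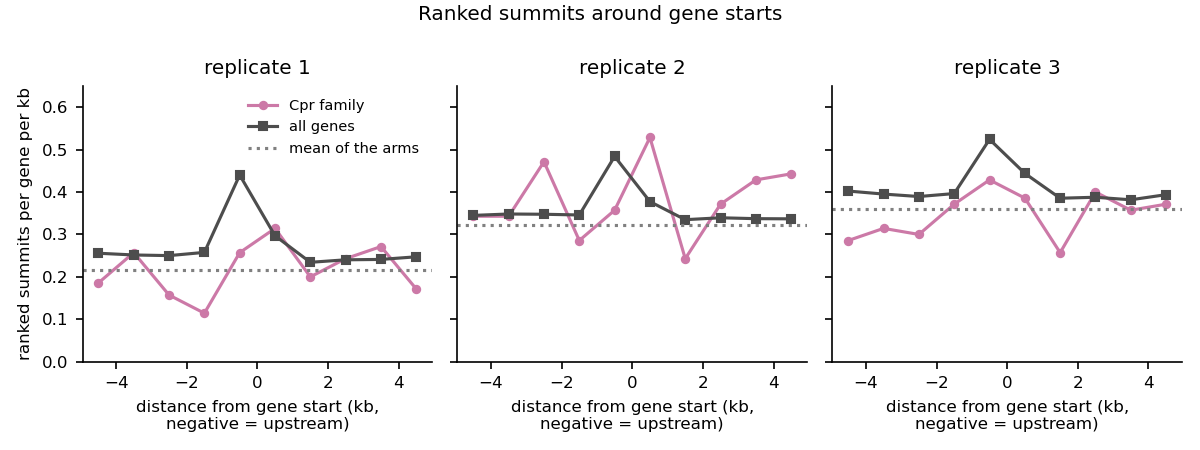
Ranked summits per gene per kb (y axis) in 1 kb bins from 5 kb upstream to 5 kb downstream of the gene start (x axis, kb), by replicate, for the 70 Cpr genes and all 13945 genes, with a dotted line at the mean of the arms. All genes show a crest just before the start (0.440, 0.484 and 0.524), and the Cpr line scatters around the mean of the arms.

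The median distance to a reproducible peak was longer for Cpr genes than for all genes. The median distance from a Cpr gene's closest start to the nearest thresholded summit was 15966, 16756 and 16830 bp, a mean of 16517 ± 479 bp (SD, n = 3), and over all genes 8924, 10695 and 11389 bp, a mean of 10336 ± 1271 bp. The Cpr median was the longer in every replicate, but layout was not matched and lone genes were not compared. Within 5 kb of a start there was a thresholded summit for 12, 9 and 12 Cpr genes (17.1, 12.9 and 17.1%) and for 36.6%, 33.1% and 32.0% of all genes. Within 50 kb the order was reversed, with 98.6, 94.3 and 94.3% of Cpr genes and 89.1, 87.4 and 85.4% of all genes. The farthest Cpr gene was Cpr50Ca in replicates 1 and 3, at 52409 and 54783 bp, and Cpr12A in replicate 2, at 83089 bp.

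**Figure D4:**
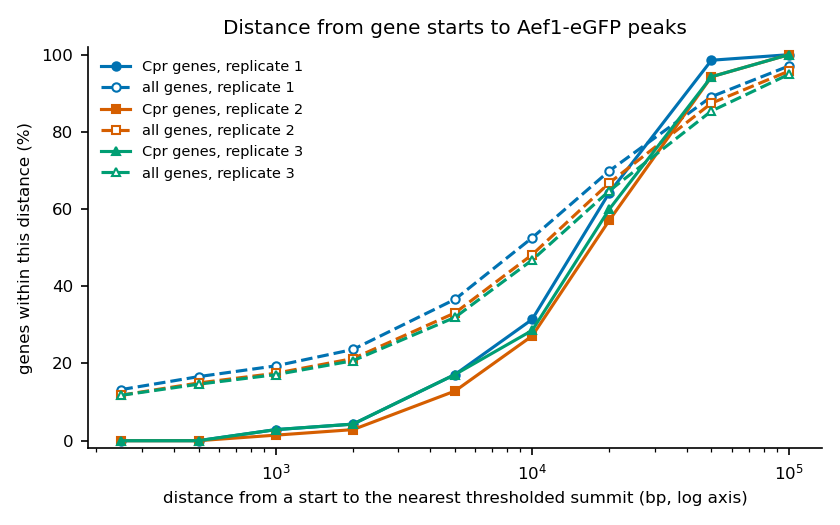
Cumulative share of genes (y axis, %) by distance from a start to the nearest thresholded summit (x axis, bp, log axis), with filled marks and solid lines for Cpr genes and open marks and dashed lines for all genes in each replicate. At 500 bp the Cpr genes stand at 0%, at 5 kb between 12.9% and 17.1%, and by 50 kb they have passed all genes.

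The closest thresholded peaks belonged to few places. Near the 70 genes there were 8 regions with a thresholded summit within 5 kb, 5 of them present in 3 replicates, 1 in 2 and 2 in 1. A Cpr start was the nearest start of any gene at only 2 of the 8.

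The site next to Cpr65Eb lies between genes, in the gap that separates Cpr65Eb from the oppositely oriented Cpr65Ec. Its summits lay 2176, 2189 and 2180 bp upstream of Cpr65Eb and 2241, 2228 and 2237 bp upstream of Cpr65Ec, within 13 bp over the replicates. Its signals were 54.0, 84.3 and 48.9, and its ranks in the thresholded lists 72.9, 34.0 and 74.9%. It was therefore in the weaker part of the lists in replicates 1 and 3.

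The site next to Cpr76Ba lies 1615, 1608 and 1606 bp downstream of that gene's start, beyond its 3′ end and outside any gene. Signals of 187, 92.5 and 121 and ranks of 10.4, 29.4 and 17.7% made it the stronger of the pair in every replicate. The 50 bp to either side of its summit had a GC content of 45.5%, and that of the Cpr65Eb site 24.8%, beside a median of 31.7% over the 2081 regions found in all 3 replicates. CAACAA was in 17.7% of those regions and in neither of these sites.

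The other regions were nearer to genes of other kinds. The peak closest to any Cpr start lay in an intron of Cpr73D, 767, 780 and 700 bp from a start of that gene, with ranks of 44.1, 44.0 and 60.7%. Its summit was at -517 bp from a start of Ogdh, which encodes a subunit of the oxoglutarate dehydrogenase complex, so the nearest start was not Cpr73D's. Cpr65Ay had a thresholded summit at 875 bp in replicate 1 and 896 bp in replicate 3, beyond its 3′ end and at -367 bp from a start of CG13297. In replicate 2 this place had a ranked peak at an IDR of 0.0328, above the threshold.

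The strongest of the 8 regions stood 4001 bp downstream of the Cpr78Cc start and inside an intron of CG11309, 77 bp from that gene's start, with signals of 241, 141 and 142 and ranks of 6.44, 14.1 and 13.5%. It held 1 CAACAA within 50 bp of its summit. A region in Pen, the importin alpha gene, lay 3202, 3203 and 3180 bp from Cpr31A and 515 bp from a Pen start. The remaining regions, near Cpr66Cb and Cpr67Fb, had a thresholded peak in replicate 1 and in replicate 3 alone, and sat at Prim1 and CG7083 and at Aps.

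Many Cpr genes stand in tandem clusters, and these held few reproducible peaks. With a largest gap of 20 kb and at least 3 members, 45 Cpr genes fell in 10 clusters that spanned 169.5 kb and enclosed 22 other genes. They were Cpr47Ea to Cpr47Eg, Cpr49Aa to Cpr49Ah, Cpr62Ba to Cpr62Bc, Cpr64Aa to Cpr64Ad, Cpr65Au to Cpr65Az, Cpr65Ea to Cpr65Ec, Cpr67Fa1 to Cpr67Fb, Cpr72Ea to Cpr72Ec, Cpr76Ba to Cpr76Bd and Cpr78Ca to Cpr78Cc. In 8 of the 10 no replicate had a thresholded summit.

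The exceptions were Cpr65Ea to Cpr65Ec, with 1 summit in each replicate, and Cpr65Au to Cpr65Az, with 1, 0 and 1. Summed over the clusters, thresholded summits numbered 2, 1 and 2, or 1.18, 0.590 and 1.18 per 100 kb, against 2.60, 2.32 and 2.18 per 100 kb over the arms. Counts this small cannot separate the clusters from the arms with any precision.

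Ranked summits in clusters had densities near those of the arms. They numbered 35, 69 and 60, or 20.7, 40.7 and 35.4 per 100 kb, against 21.6, 32.2 and 36.1 over the arms. The clusters were below the arms in replicates 1 and 3 and above them in replicate 2. The Cpr76Ba to Cpr76Bd cluster shows the spread between replicates, with 2 ranked summits in replicate 1 and 9 in each of the others. Inside clusters 11, 17 and 18 of 45 members had a ranked peak at a start, and outside them 7, 4 and 10 of 25, so no side was higher in every replicate.

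**Figure D5:**
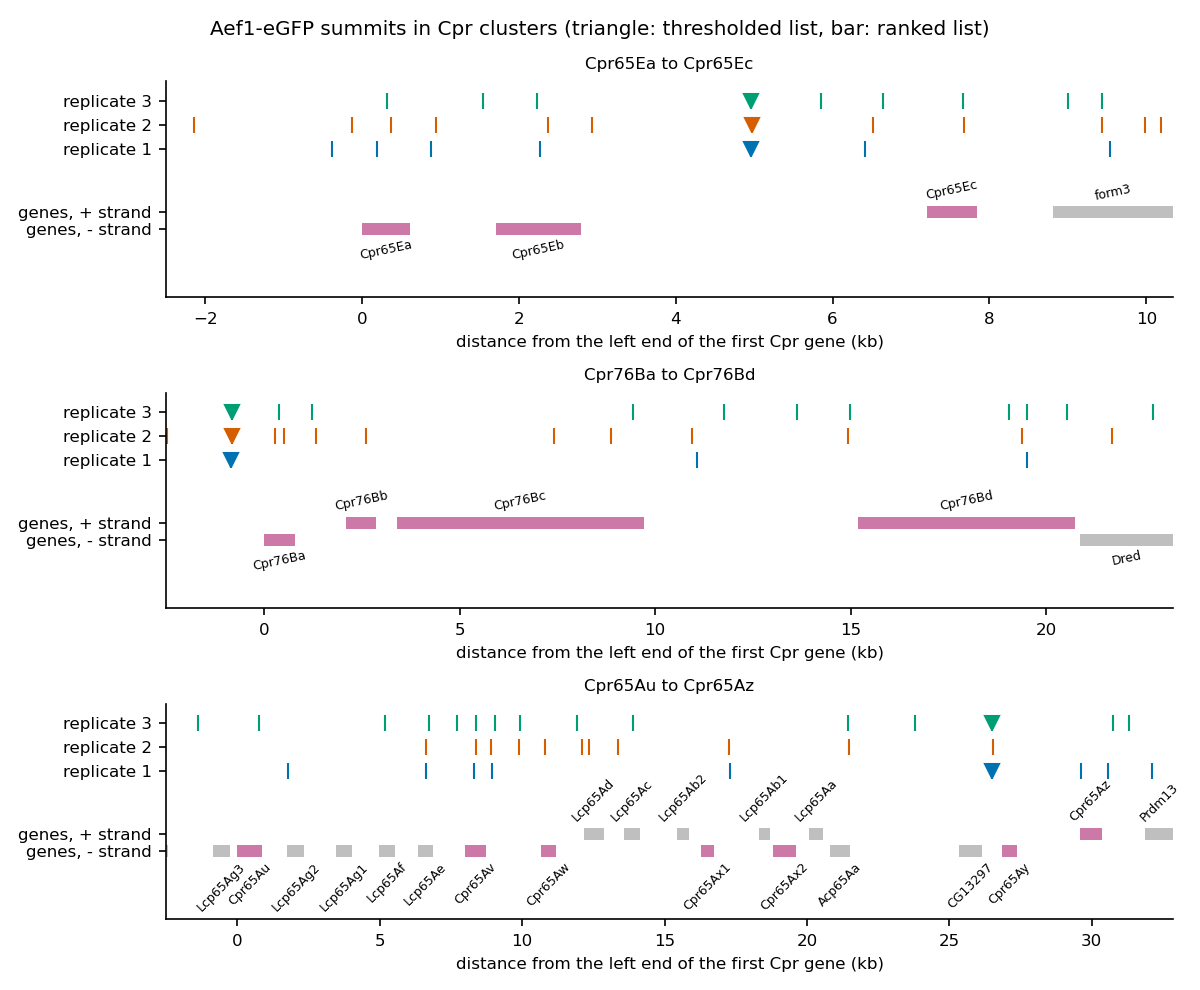
Genes (bars, Cpr genes in pink and others in grey, by strand, with 1 overlapping gene at the right end of the middle map not named) and Aef1-eGFP summits by replicate in 3 Cpr clusters, with triangles for thresholded and short lines for ranked lists, against distance from the left end of the first Cpr gene (x axis, kb). The Cpr65Ea to Cpr65Ec map has a triangle in each replicate in the gap before Cpr65Ec, the Cpr76Ba to Cpr76Bd map has them just outside the cluster, and the Cpr65Au to Cpr65Az map has them in replicates 1 and 3.

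Promoters of Cpr genes carried CAACAA about as often as others. In the 250 bp before to 50 bp after the 5′ end of the gene model, on either strand, CAACAA was in 21 of 70 (30.0%, interval 19.6 to 42.1%) and in 28.0% of all promoters. The tandem CAACAACAA, which contains CAACAA, was in 3 (4.29%, interval 0.893 to 12%), namely Cpr50Ca, Cpr100A and Cpr11B, and in 2.25% of all. Over all genes, those with the tandem were bound in 3 replicates in 28.0% of cases and those with CAACAA in 13.4%, beside 11.3% of all genes. None of the 3 Cpr genes with the tandem had a ranked peak at its start in any replicate. The same held for 40.0% of all Cpr genes and 31.1% of all genes, so 3 genes show little. Of the 21 members with CAACAA, 2 (9.52%) had a ranked peak in all 3 replicates, and of the 49 without it 4 (8.16%) did. In replicates 1, 2 and 3 by themselves, 3, 6 and 7 members with it had one (14.3, 28.6 and 33.3%). Without it 15, 15 and 21 did (30.6, 30.6 and 42.9%). The share was the lower with CAACAA in each single replicate, by little in replicate 2, and the higher in the count over all 3. These counts are small and no interval was computed for them. A match describes the letters only.

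The TATA and TATCGATA words differed from the background by more than the counting interval, and the initiator word did not. A TATA word (TATAAAA or TATATAA, either strand) was in 41 members (58.6%, interval 46.2 to 70.2%) and in 33.7% of all promoters. On the sense strand 45 to 16 bp before the start it was in 30 members (42.9%) and in 6.79% of all genes. It stood there in 1.47% of the genes bound in all 3 replicates, and 2.43% of the 947 genes with it were bound. An initiator word (TCAGTC or TCAGTT) was in 32 members (45.7%, interval 33.7 to 58.1%) and 35.2% of all, and within 500 bp to either side of the start in 68.6% of members and 66.3% of all. TATCGATA, the word of the DNA replication-related element, was in 1 member, Cpr49Af (1.43%, interval 0.0362 to 7.70%), and in 9.37% of all promoters.

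Among the Cpr genes themselves the TATA word did not sort the weak peaks. Of the 30 members with it at that distance 7, 7 and 13 had a ranked peak in replicates 1, 2 and 3, and of the 40 without it 11, 14 and 15. The share was the lower with the word in replicates 1 and 2 and the higher in replicate 3. Cpr promoters had a median GC content of 45.7%, from 31.6 to 56.2%, while the median was 37.9% over all promoters and 36.9% over those bound in all 3 replicates. The part of base composition in the counts of peaks was not tested.

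Near-identical copies touched 2 members. In 68 of 70 members at least 90% of the 31-base words of the promoter region occur once in the genome, so reads there can be placed. The exceptions are the adjacent copies Cpr65Ax1 (23.6%) and Cpr65Ax2 (27.9%), which had no ranked peak in any replicate and are uncertain, since reads from the copies cannot be placed uniquely over most of these windows.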

How the data were processed

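Peak lists of 3 replicates were analysed. Per the deposited listing, each replicate's thresholded and ranked IDR lists on dm6 came from its filtered alignments and 1 further input; neither the aligner nor the peak caller is named there. The authors' signal has no stated scale and served only to rank peaks within a list. The deposited score is 125 times the negative log2 of the IDR, capped at 1000, and reaches 830 at the threshold. The deposited ranked lists also hold the −log10 of the IDR. Reads were not analysed, so depth is unknown.

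Gene models were Ensembl protein-coding genes (19252 distinct starts on 6 arms). Bases came from the RefSeq release of the same assembly. Peaks off the arms were left out. Summit assignment was tested on simulated peaks. Members, lists and tests were chosen with earlier results of these data known. Named genes were those bound, those with ranked peaks in all 3 replicates (6 where up to 10 were allowed), cluster ends, genes nearest the window, Cpr56F (the rule calls it resilin, which is annotated as another gene and is no member) and up to 4 bound genes per other list. Other names were chosen after their values were seen. In the obstructor list 12 of 17 written names, and in the tanning list 30 of 31, matched a gene. Alternatives were windows of 250 and 1000 bp, other assignments, other IDR limits, other gaps, other promoter stretches, 4 lists of the whole series and leaving out each replicate. The background of lone genes was added after the data were seen. No p-values were computed, since 1 group gives no comparison over samples. Scripts ran in Python 3.11.15 with pandas 2.3.3, numpy 2.4.6, matplotlib 3.10.9 and SciPy 1.17.1.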

Additional observations from a re-analysis of the deposited data

How the results depend on the processing

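Of 106 recomputed values, 78 stayed close to the reported ones (counts within 1.5 times, other values within 1 SD). No Cpr gene was bound under any alternative except a window of 1000 bp, which gave 2, 1 and 2 in replicates 1, 2 and 3 and 1 in all 3: Cpr73D in all, and Cpr65Ay in replicates 1 and 3. For settings that only narrow the rule, a count of 0 was fixed in advance and carries no information. These were 250 bp, the nearest start only, the 5′ end of the gene model, an IDR of 0.001, lone genes and leaving out a replicate. Ranked peaks were at 9, 13 and 15 Cpr genes (2 in all 3) with 250 bp and at 34, 43 and 43 (16 in all 3) with 1000 bp; a wider window takes in more summits by construction. Leaving out a replicate left 8 to 12 Cpr genes with a ranked peak in the others (11 without replicate 1 and 12 without replicate 2) and 7 to 11 bound genes in the other cuticle lists (11 without replicate 2), both counts asking for fewer replicates. Those lists held 7 bound genes, 4 at an IDR of 0.001, and 14, 13, 12 and 13 in the 4 lists of the whole series. With ranked lists the mean median distance was 866 bp, and clusters held 32.3 summits per 100 kb, against 0.984. CAACAA was in 43 Cpr promoters within 500 bp of the start and 2 in the 100 bp before it. In those 100 bp the tandem was in 1, the initiator word in 12 and TATCGATA in 0, and TATCGATA was in 2 within 500 bp. Median ranks were 36.6 to 56.2% when a replicate was left out. No paired analysis was possible because the series has 1 group. Peak lists without read counts limit all statements to peaks the authors called.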

Other observations

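The 4 lists made for the series as a whole, of 4971, 4566, 4375 and 4533 peaks, also placed no summit within 500 bp of a Cpr start, where 20.2%, 18.8%, 18.3% and 19.3% of all genes had one. Their closest summit was 765 bp from Cpr73D in each list, and 15, 14, 13 and 12 Cpr genes had a summit within 5 kb. The replicates that each list compares are not named in the sources used here.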
